A study of Mus musculus with 6 samples.

Results

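Cytosolic heat shock chaperones are the proteins that fold, refold and hold other proteins in the cytosol, and 10 of their genes were followed here in cultured mouse endothelial cells. They were Hspa8, Hspa1a, Hspa1b, Hsp90aa1, Hsp90ab1, Hspb1, Dnajb1, Hsph1, Hspa4 and the regulator gene Hsf1. They were selected by gene name, and all 10 were found, once each, among 54532 genes of the deposited count table. The cells had been exposed for 72 h to lentivirus that overexpressed RBPMS, a protein that binds RNA (3 libraries, RBPMS 1 to 3), or to lentivirus with an empty vector (3 libraries, Control 1 to 3). Both groups therefore received virus, and no untreated cells are analysed here. The labels do not give the strain, the age, the vessel of origin or the species of the RBPMS sequence. By its title the series concerns RBPMS in the failing, aging heart.

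Hsp70 proteins bind stretches of unfolded protein in a cycle driven by ATP: J-domain proteins such as DNAJB1 start the cycle, and Hsp110 proteins such as HSPH1 and HSPA4 exchange the nucleotide. Hsp90 acts later, on proteins close to their final fold, and in endothelium its known clients include the nitric oxide synthase eNOS. HSF1 is the transcription factor of the heat shock response: under stress it forms trimers and binds inverted repeats of GAA in promoters, heat shock elements, above all in the inducible genes Hspa1a, Hspa1b, Dnajb1, Hsph1 and Hspb1.

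Of the 10 genes, 6 have an entry in the RefSeq promoter table for GRCm38.p6 (Hspa1a, Hspa1b, Hspa4, Hspb1, Hsph1 and Dnajb1). The 150 bases directly before the annotated transcription start are shown for 4 of them, because these genes hold a matching element while their transcript levels, given below them, lie far apart. Capitals mark a pair of facing GAA units, GAANNTTC or TTCNNGAA, both of which read the same on either strand.
Hspa1b, chr17:34959239-34959388, minus strand: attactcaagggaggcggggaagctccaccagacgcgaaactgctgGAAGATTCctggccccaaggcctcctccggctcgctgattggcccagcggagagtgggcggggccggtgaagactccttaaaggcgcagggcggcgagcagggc
Hspa1a, chr17:34972157-34972306, minus strand: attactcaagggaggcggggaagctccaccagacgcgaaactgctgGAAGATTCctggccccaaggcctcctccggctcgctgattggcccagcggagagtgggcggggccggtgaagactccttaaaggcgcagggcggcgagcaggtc
Hspb1, chr5:135887769-135887918, plus strand: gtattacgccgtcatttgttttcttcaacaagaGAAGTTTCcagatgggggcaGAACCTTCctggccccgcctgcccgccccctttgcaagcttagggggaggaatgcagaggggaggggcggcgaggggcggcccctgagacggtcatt
Hsph1, chr5:149636337-149636486, minus strand: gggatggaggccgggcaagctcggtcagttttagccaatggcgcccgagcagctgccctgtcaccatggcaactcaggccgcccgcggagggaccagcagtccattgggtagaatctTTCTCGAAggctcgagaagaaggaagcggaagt
Hspa1a and Hspa1b were alike at 247 of the 250 bases before the start (98.8%), and both held GAAGATTC from 104 to 97 bases before it. Hspb1 held GAAGTTTC from 117 to 110 and GAACCTTC from 97 to 90 bases before its start. Hsph1 held TTCTCGAA from 33 to 26 bases before the start shown, and the same 8 letters lie before its other annotated start. Neither pair was found in the 250 bases before the starts of Hspa4 and Dnajb1. Of all 32851 promoter entries, 12.8% held GAANNTTC or TTCNNGAA in those 250 bases. Longer forms, in which 1 more unit follows such a pair at the same spacing, were in 0.466% of entries and in none of these 6 genes. A match is a run of letters and was not tested as a binding site.

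Library totals ran from 18199702 to 21492957 counts with RBPMS and from 15779567 to 23076124 counts in controls. The Rbpms gene itself had 131, 148 and 133 CPM (counts relative to the TMM-scaled library total, the scale of all levels here unless stated) in RBPMS 1 to 3, against 57.1, 56.8 and 55.2 CPM in Control 1 to 3. One library stood apart. Control 3 correlated with the other libraries at 0.954 to 0.960 (Pearson's r of log2 CPM across 13898 genes), while each of the other 5 reached at least 0.993 with another library. Results are therefore given with all 6 libraries and with the 5 left without Control 3. The 12 endothelial markers, led by Vwf, were all detected and summed to 18405 to 19369 CPM with RBPMS and 16825 to 21379 CPM in controls. The 8 leukocyte markers, mostly Cd68, summed to 54.9 to 60.0 CPM with RBPMS and 42.6 to 47.2 CPM in controls, with Adgre1 and Cd3e at 0 in every library. The 10 smooth muscle and pericyte markers, mostly Smtn, summed to 188 to 203 CPM with RBPMS and 157 to 185 CPM in controls, with Rgs5 and Kcnj8 at 0. The 8 epithelial and mesothelial markers, mostly Msln, summed to 17.0 to 21.2 CPM with RBPMS and 21.4 to 26.1 CPM in controls, with Epcam, Cdh1 and Krt18 at 0. These 3 sums, each mostly 1 gene, did not overlap between groups, as was the case for 24.7% of single tested genes. Their part in the values below was not tested. The 8 fibroblast markers stayed at or below 7.79 CPM and the 8 cardiomyocyte markers at or below 3.92 CPM. In such cultures fewer cells of a type and less RNA per cell cannot be told apart. Nothing in the labels says that replicates came from separate cultures, so p-values measure the spread between these libraries, which may be technical.

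The 10 genes spanned a wide range of levels, from the most abundant mRNAs of the cells to a few counts per library. Per kilobase of annotated length, Hsp90ab1 stood highest with a mean of 1016 ± 80.1 CPM per kilobase (SD over all 6 libraries), above 99.9% of tested genes. Hspa8 followed with 269 ± 35.2, Hsp90aa1 with 87.1 ± 7.09 and Hspa4 with 57.0 ± 3.57 CPM per kilobase. The constitutive chaperones and Hsp90aa1 thus led the order. On this scale Dnajb1, at 11.4 ± 0.771, and Hsph1, at 11.2 ± 0.685 CPM per kilobase, did not differ beyond their spread over libraries. The length merges all annotated exons, 3204 bases for Dnajb1, 7266 for Hsph1 and 7099 for Hsf1, and the order depends on it. Before division by length Dnajb1 had 33.4 to 40.4 CPM and Hsph1 76.3 to 89.5 CPM. Hsf1 followed with 6.73 ± 0.439, Hspa1b with 5.32 ± 0.336, Hspa1a with 0.950 ± 0.197 and Hspb1 with 0.190 ± 0.0611 CPM per kilobase. Apart from Dnajb1 and Hsph1, neighbours in this order did not overlap in any of the 6 libraries. Together the 10 genes took 0.471%, 0.486% and 0.488% of all counts in RBPMS 1 to 3 and 0.504%, 0.496% and 0.578% in Control 1 to 3.

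**Figure D1:**
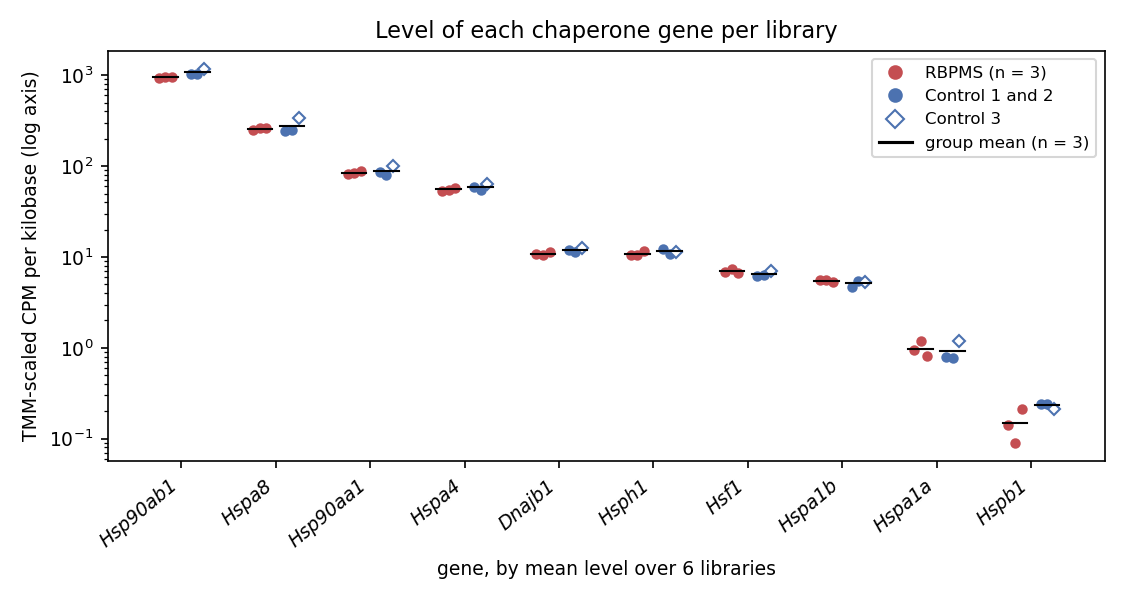
TMM-scaled CPM per kilobase of annotated length (log axis) of the 10 genes in each library, RBPMS left of Control, with the group mean as a line and Control 3 as an open diamond. The order runs from Hsp90ab1, at a mean of 1016 CPM per kilobase, down to Hspb1, at 0.190. The group means lie close together except for Hspb1, at 0.148 with RBPMS and 0.232 in controls from a few counts per library.

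No member passed the test for a difference between RBPMS and control cells, with or without Control 3. Of the 10 members 9 had enough counts to be tested, and Hspb1 did not. Over all 6 libraries 0 of 9 had an adjusted p under 0.05 (edgeR quasi-likelihood), where 0% of all 13898 genes tested did. At an unadjusted p under 0.05 there were again 0 of 9 members, against 7.56% of all genes. DESeq2, which called 0.403% of all genes, and limma-voom, which called 0%, also called 0 members. Without Control 3 edgeR called 7.24% of 14123 genes and 0 of the 9 members, whose lowest adjusted p was 0.177. DESeq2 and limma-voom again called 0 members there, while they called 5.49% and 6.95% of all genes. At an unadjusted p under 0.05 edgeR left 2 of 9 members, Hsf1 and Hsp90ab1, against 20.9% of all genes. The median log2 fold change of the tested members was -0.080 over 6 libraries and 0.029 over 5, beside -0.0083 and -0.0025 for all genes.

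The intervals of these differences reflect the spread between these libraries, which may be technical, and they differed widely between members. Those without Control 3 leave out the library that stood apart. The median standard error over members was 0.062 on the log2 scale with 5 libraries and 0.12 with 6. Without Control 3 the 95% interval of Hspa8 ran from -2.57% to 11.6%, as the change with RBPMS. That of Hsp90aa1 ran from -4.66% to 9.19%, and that of Hspa4 from -8.21% to 5.71%. Dnajb1 ran from -15.5% to 5.27%, and Hsph1 from -14.3% to 2.44%. Hsp90ab1 ran from -13.0% to -0.554% and Hsf1 from 1.25% to 23.9%, and only these intervals left out 0. The inducible Hsp70 genes had wide intervals even without Control 3, from -11.1% to 81.5% for Hspa1a and from -6.91% to 26.1% for Hspa1b. With all 6 libraries the interval of Hspa8 was -28.6% to 20.9% and that of Hspa1a -31.0% to 63.1%, and the interval of every tested member held 0. These are intervals of single genes, not adjusted for the number of genes.

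**Figure D2:**
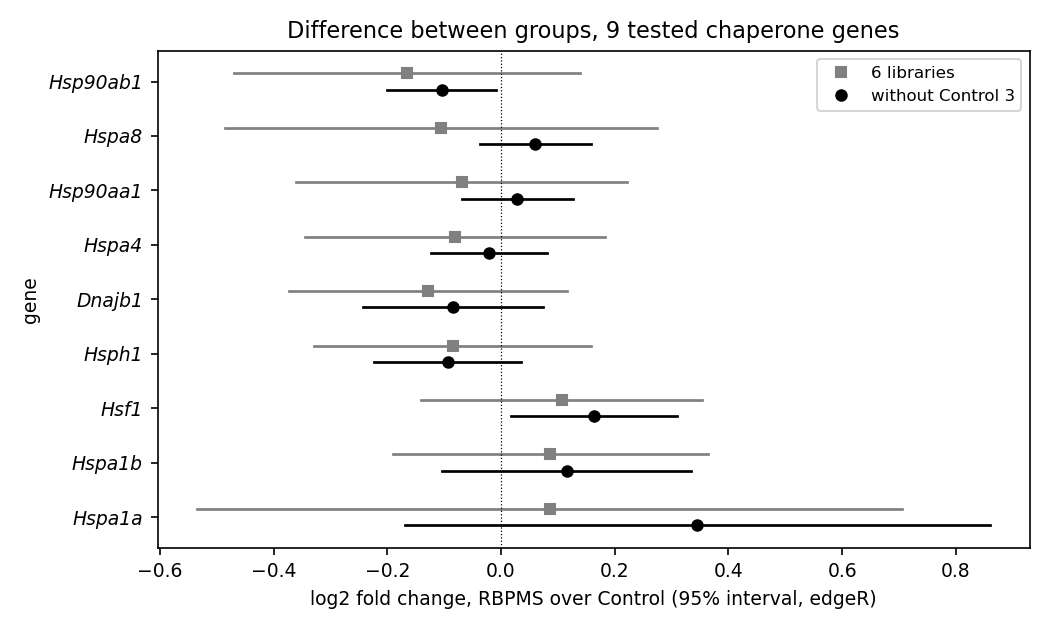
log2 fold change of RBPMS over Control with its 95% interval for the 9 tested genes, from the edgeR fits with 6 libraries (squares) and without Control 3 (circles). Without Control 3 the intervals of Hsp90ab1 and Hsf1 leave out 0 before adjustment, Hsp90ab1 on the lower side and Hsf1 on the higher, and with 6 libraries every interval holds 0.

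Hsp90ab1 (ENSMUSG00000023944, chromosome 17, 45567775 to 45573271, minus strand, GRCm38) encodes the constitutive cytosolic Hsp90. It had 2830, 2895 and 2896 CPM in RBPMS 1 to 3, against 3097, 3087 and 3485 CPM in Control 1 to 3. Every RBPMS library lay below every control, and Hsp90ab1 was the only tested member whose groups did not overlap over all 6 libraries, as was the case for 24.7% of all genes. The log2 fold change was -0.10 ± 0.046 (SE) without Control 3, with an edgeR adjusted p of 0.194, and -0.17 ± 0.13 over 6 libraries, with an adjusted p of 0.604.

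Hsp90aa1 (ENSMUSG00000021270, chromosome 12, 110690605 to 110702728, minus strand) encodes the stress-inducible cytosolic Hsp90. It had 326, 333 and 343 CPM in RBPMS 1 to 3, against 339, 317 and 396 CPM in Control 1 to 3. The groups overlapped. Other annotated genes share 51.5% of its 31-base words, so part of its reads could be split. The most alike of these, Gm12346, held 654 counts over all libraries. All such genes that are not members held 45125 counts together over all libraries, beside 5140 to 8991 for Hsp90aa1 in each library. Its log2 fold change was 0.029 ± 0.047 without Control 3 (edgeR adjusted p = 0.795) and -0.069 ± 0.12 with it (adjusted p = 0.785).

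Within a library the ratio of both Hsp90 transcripts is free of scaling between libraries. It is not free of differences by gene length, which is 3931 bases for Hsp90aa1 and 2999 for Hsp90ab1. Counts of Hsp90aa1 were 11.5%, 11.5% and 11.9% of those of Hsp90ab1 in RBPMS 1 to 3, against 10.9%, 10.3% and 11.4% in Control 1 to 3. The ratio was thus higher in every RBPMS library than in every control. Without Control 3 the log2 fold change was 0.029 for Hsp90aa1 and -0.10 for Hsp90ab1, so the ratio mostly repeats the lower Hsp90ab1. Of single genes, 24.7% were separated over 6 libraries and 37.4% without Control 3, and no such share was computed for ratios. The mean log2 difference was 0.10 over 6 libraries and 0.13 without Control 3, and each comparison reached the smallest p its design allows (p = 0.1, two-sided exact permutation test, n = 3 and 3, and n = 3 and 2). The closest libraries were RBPMS 2, with a 95% counting interval of 11.2% to 11.8%, and Control 3, with 11.1% to 11.6% (exact Clopper-Pearson, counting error only). These 2 libraries did not differ beyond counting error.

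Hspa8 (ENSMUSG00000015656, chromosome 9, 40800984 to 40810087, plus strand) encodes Hsc70, the constitutive Hsp70. It had 1075, 1139 and 1124 CPM in RBPMS 1 to 3, against 1050, 1087 and 1457 CPM in Control 1 to 3. The libraries other than Control 3 lay between 1050 and 1139 CPM, and Control 3 stood above all of them. Other annotated genes share 44.8% of its 31-base words, so part of its reads could be split. The most alike of these, Gm15459, held 0 counts over all libraries. All such genes that are not members held 6151 counts together, beside 16696 to 33069 for Hspa8 in each library. The sign of the fold rested on Control 3: the log2 fold change was -0.11 ± 0.16 over 6 libraries (edgeR adjusted p = 0.745) and 0.060 ± 0.047 without Control 3 (adjusted p = 0.519).

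Hspa1b and Hspa1a encode the inducible Hsp70, lie close together on chromosome 17 (34956436 to 34959238 and 34969190 to 34972156, both minus strand) and have a single exon each. Hspa1b (ENSMUSG00000090877) had 322, 335 and 269 counts in RBPMS 1 to 3, or 15.7, 15.6 and 14.7 CPM, against 209, 247 and 340 counts in Control 1 to 3, or 13.1, 15.2 and 15.0 CPM. The groups overlapped. Hspa1a (ENSMUSG00000091971) had 58, 75 and 44 counts in RBPMS 1 to 3, or 2.84, 3.49 and 2.41 CPM, against 37, 37 and 81 counts in Control 1 to 3, or 2.33, 2.28 and 3.57 CPM. Here Control 3 was the highest of all libraries, and Control 1 and Control 2 were the lowest. The log2 fold change was 0.12 ± 0.11 for Hspa1b and 0.35 ± 0.25 for Hspa1a without Control 3 (edgeR adjusted p = 0.595 and 0.472). Over 6 libraries it was 0.087 for Hspa1b and 0.086 for Hspa1a (edgeR adjusted p = 0.717 and 0.877). The value of Hspa1a over 6 libraries became -0.063 without RBPMS 2, -0.019 without Control 1 and -0.027 without Control 2.

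The split of reads between this pair is uncertain. Of the distinct 31-base words in annotated Hspa1a transcripts 63.8% also occur in Hspa1b, and of those of Hspa1b 67.6% occur in Hspa1a (GENCODE M21, both strands). Hspa1a counts were 18.0%, 22.4% and 16.4% of Hspa1b counts in RBPMS 1 to 3 and 17.7%, 15.0% and 23.8% in Control 1 to 3. With both genes counted as 1, the sum had a log2 fold change of 0.15 ± 0.099 without Control 3 (edgeR adjusted p = 0.428) and 0.088 ± 0.12 with it (adjusted p = 0.723). The interval of the sum without Control 3 ran from -3.83% to 28.0%. Set against Hspa8 within each library, the inducible sum was 1.73%, 1.67% and 1.53% of Hspa8 counts in RBPMS 1 to 3, against 1.47%, 1.61% and 1.27% in Control 1 to 3. RBPMS 3 lay below Control 2, so the groups overlapped (mean log2 difference 0.18, two-sided exact permutation p = 0.2, n = 3 and 3, smallest possible 0.1). Without Control 3 the difference was 0.090, with an exact permutation p of 0.4 (n = 3 and 2, smallest possible 0.1).

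**Figure D3:**
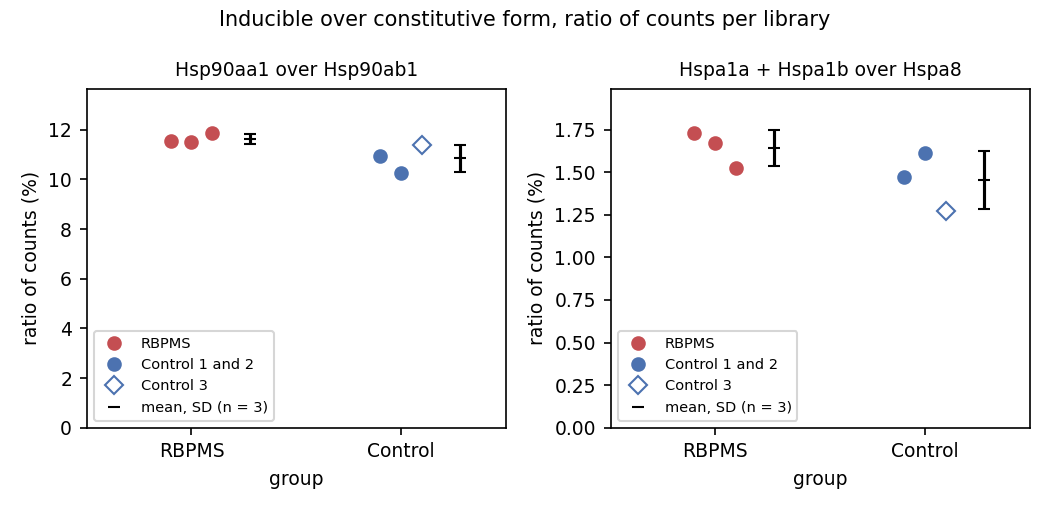
Ratio of counts in percent, per library, of the inducible over the constitutive cytosolic Hsp90 transcript (left) and Hsp70 transcript (right), with group means and SD (n = 3 each) and Control 3 as an open diamond. The Hsp90 ratio is 11.5% to 11.9% in RBPMS libraries and 10.3% to 11.4% in controls, and the Hsp70 ratio overlaps between groups.

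Dnajb1 (ENSMUSG00000005483), the J-domain partner of inducible Hsp70, had 35.0, 33.4 and 36.6 CPM in RBPMS 1 to 3, against 38.3, 36.0 and 40.4 CPM in Control 1 to 3. RBPMS 3 lay above Control 2, so the groups overlapped by these 2 libraries. Its log2 fold change was -0.085 ± 0.076 without Control 3 (edgeR adjusted p = 0.591) and -0.13 ± 0.10 with it (adjusted p = 0.606).

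The Hsp110 genes showed no separation either. Hsph1 (ENSMUSG00000029657), which encodes the heat-inducible Hsp105, had 76.8, 76.3 and 83.6 CPM in RBPMS 1 to 3, against 89.5, 79.0 and 82.5 CPM in Control 1 to 3. Hspa4 (ENSMUSG00000020361), which encodes the constitutive Apg-2, had 296, 305 and 317 CPM in RBPMS 1 to 3, against 323, 299 and 349 CPM in Control 1 to 3. In both genes RBPMS 3 was the highest library of its group and lay within the range of the controls. Without Control 3 the log2 fold change was -0.094 ± 0.062 for Hsph1 (edgeR adjusted p = 0.426) and -0.022 ± 0.049 for Hspa4 (adjusted p = 0.857), and with it -0.085 ± 0.10 and -0.080 ± 0.11 (adjusted p = 0.691 and 0.725).

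Hsf1 (ENSMUSG00000022556, chromosome 15, 76477422 to 76501913, plus strand) had 48.6, 52.3 and 47.6 CPM in RBPMS 1 to 3, against 44.0, 44.6 and 49.4 CPM in Control 1 to 3. All RBPMS libraries lay above Control 1 and Control 2, and Control 3 lay within the RBPMS range. Without Control 3 the log2 fold change was 0.16 ± 0.070, with an edgeR adjusted p of 0.177. Separation of the groups in those 5 libraries was seen for Hsf1, Hspa1a and Hsp90ab1 among the 9 tested members and for 37.4% of all genes. Over 6 libraries the log2 fold change was 0.11 ± 0.10 (adjusted p = 0.644), and with a per-library trend on gene length removed it was -0.035 (adjusted p = 0.917). These values are transcript levels, and the activity of HSF1 protein was not measured.

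Hspb1 (ENSMUSG00000004951, chromosome 5, 135887919 to 135889563, plus strand) encodes the small heat shock protein HSP25 of the mouse, which holds unfolded proteins without ATP. It had very few counts, 3, 2 and 4 in RBPMS 1 to 3 and 4, 4 and 5 counts in Control 1 to 3. By scaled CPM the RBPMS libraries lay below the controls, but the closest, RBPMS 3 and Control 3, had 0.219 and 0.220 CPM. Groups did not overlap for 24.7% of all tested genes. Summed over each group this gave 0.15 CPM of unscaled totals with RBPMS (95% exact Poisson interval 0.0684 to 0.284) and 0.236 in controls (0.126 to 0.404), which covers counting error only. The ratio of the rates was 0.634, with an exact interval of 0.239 to 1.6, so no difference was detectable at this depth. Reads were not analysed here, so whether the counting missed reads of this gene was not tested. Of the 31-base words of Hspb1 transcripts 55.4% also occur in Hsp25-ps1, a pseudogene by its name, or in Gm9817. These 2 genes held 0 and 1 counts over all 6 libraries.

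Control 3 carried more of most of these transcripts than the other controls. It lay above all 5 other libraries in 6 of the 9 tested members (Hspa8, Hspa1a, Hsp90aa1, Hsp90ab1, Dnajb1 and Hspa4) and below them in 0, while it was above for 40.3% and below for 39.7% of all tested genes. Relative to the mean of Control 1 and Control 2 it held 1.55-fold as much Hspa1a, 1.36-fold as much Hspa8 and 1.21-fold as much Hsp90aa1. Across all genes this library differed by annotated length, by a median on the log2 scale of 0.599 in the shortest of 5 equal classes of genes and -0.532 in the longest. Of the members, 6 lay above the median of their own length class and 3 below it. Hspa8 differed by 0.45 beside a median of 0.030 for genes of its length, Hsf1 by 0.16 beside -0.53, and Hspa1b by 0.081 beside 0.31. The part of length or of RNA quality in these values was not tested.

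**Figure D4:**
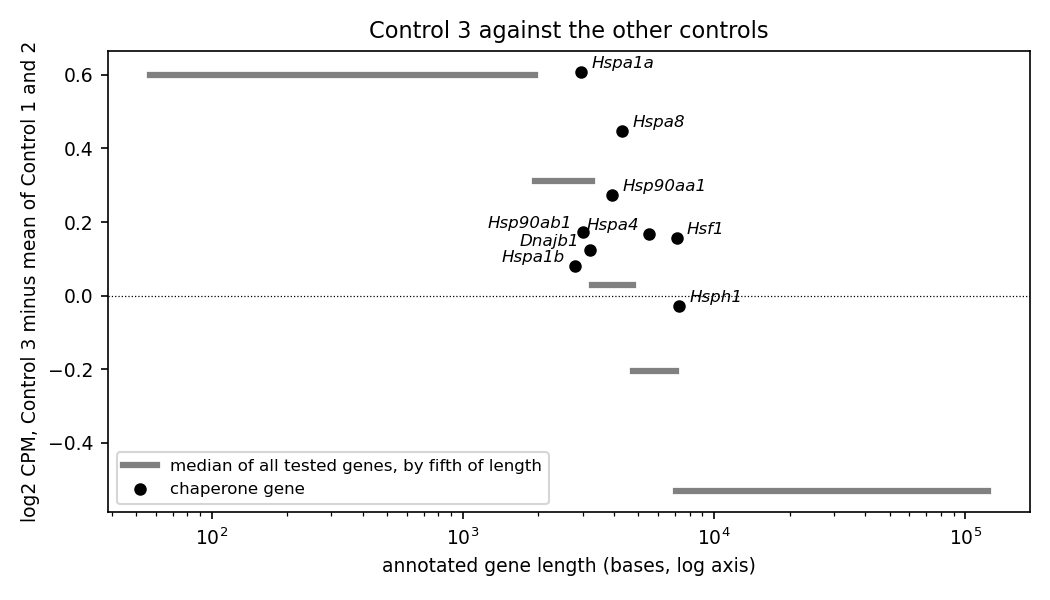
log2 CPM of Control 3 minus the mean of Control 1 and Control 2 for the 9 tested members (points) against annotated gene length in bases (log axis), with the median of all tested genes in each of 5 equal classes of length (bars). Hspa1a, Hspa8, Hsp90aa1, Hspa4, Hsf1 and Hsph1 lie above the bar of their length, and Hsp90ab1, Dnajb1 and Hspa1b lie below it.

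The transcripts that ran most alike with Hspa8 over the 6 libraries, among 9631 genes whose log2 CPM averaged 3 or more, were Rtraf, Atraid and Cd302 (Pearson's r of 0.999, 0.999 and 0.998). For the sum of Hspa1a and Hspa1b they were Lims2, Ss18 and Irf2bp2 (0.984, 0.977 and 0.969). None is a member or belongs to the lists below. Without Control 3 the values were 0.981 to 0.99 for Hspa8, and 0.966 to 0.982 for the sum. These are descriptions over few libraries.

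The partners of these chaperones were read from 8 lists of 110 genes, of which 103 had enough counts. Over all 6 libraries 0 of 103 passed the edgeR test, with 7 of 103 at an unadjusted p under 0.05, against 7.56% of all genes. The same count was 24 of 103 without Control 3, against 20.9% of all genes. Without Control 3, 5 rose and 5 fell, beside 3.81% of all genes that rose and 3.43% that fell. The median log2 fold change of the 103 genes was -0.034, beside -0.0025 for all genes. The lists were chosen with earlier results of these data known, and none of the 10 calls held over all 6 libraries.

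Among 20 Hsp90 cochaperones 1 rose and 1 fell without Control 3. Unc45a, which loads myosin onto Hsp90, had 77.2, 82.6 and 74.3 CPM in RBPMS 1 to 3, against 54.7, 62.0 and 55.2 CPM in Control 1 to 3. No control reached the lowest RBPMS library (log2 fold change 0.42 ± 0.066, edgeR adjusted p = 3.9e-04). Groups did not overlap for 24.7% of all genes over 6 libraries. Fkbp5, a steroid-inducible immunophilin of Hsp90, had 441, 415 and 431 CPM in RBPMS 1 to 3, against 479, 500 and 555 CPM in Control 1 to 3 (-0.19 ± 0.046, adjusted p = 0.015). It overlaps several small loci with counts, so its reads could be split.

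Of 15 Hsp70 exchange factors and partners 1 fell, Bag1, which releases nucleotide from Hsp70. It had 62.5, 65.7 and 64.0 CPM in RBPMS 1 to 3, against 74.0, 72.8 and 113 CPM in Control 1 to 3 (log2 fold change without Control 3 -0.19 ± 0.057, edgeR adjusted p = 0.042). Of 17 J-domain cochaperones, which hand clients to Hsp70, 0 passed in edgeR. Without Control 3, 1 of the 17 had an unadjusted p under 0.05, against 20.9% of all genes. The most abundant of these were Dnajc5 and Dnaja1, with log2 fold changes of 0.049 ± 0.046 and -0.065 ± 0.045 without Control 3. Besides Hsf1, given above, 3 genes were tested in the list of heat shock factors and an HSF1-binding protein: Hsf2, Hsf4 and Hsbp1. Of these, 0 passed in edgeR and 0 had an unadjusted p under 0.05. The log2 fold change without Control 3 was 0.012 ± 0.0998 for Hsf2 and -0.034 ± 0.049 for Hsbp1, which encodes the HSF1-binding protein.

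The chaperonin TRiC and its helper prefoldin fold actin and tubulin, and 2 of their 15 genes fell without Control 3. The prefoldin gene Pfdn2 had 16.5, 17.5 and 16.8 CPM in RBPMS 1 to 3, against 21.2, 21.0 and 29.9 CPM in Control 1 to 3 (log2 fold change -0.32 ± 0.090, edgeR adjusted p = 0.036). The TRiC subunit gene Cct6a had 179, 181 and 186 CPM in RBPMS 1 to 3, against 209, 199 and 287 CPM in Control 1 to 3 (-0.16 ± 0.046, adjusted p = 0.036). In all 15 genes Control 3 was above the other 5 libraries, and over 6 libraries the log2 fold change was negative for each of them, with a median of -0.35, against -0.056 without Control 3. Both named genes overlap other annotated loci with counts.

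Small heat shock proteins other than Hspb1 were low, and 4 of 9 could be tested. Cryab, alpha B-crystallin, rose without Control 3: it had 27.0, 34.0 and 26.4 CPM in RBPMS 1 to 3, against 19.7, 23.0 and 34.1 CPM in Control 1 to 3 (log2 fold change 0.45 ± 0.11, edgeR adjusted p = 0.011). Control 3 was the highest of all libraries for this gene, and over 6 libraries the log2 fold change was 0.18 (adjusted p = 0.691). The neighbouring Hspb2 overlaps the Cryab locus.

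Among 11 further genes that heat induces, 2 rose and 1 fell without Control 3. Zfand2a, which encodes a proteasome-associated zinc finger protein, had 120, 118 and 114 CPM in RBPMS 1 to 3, against 88.8, 93.7 and 72.9 CPM in Control 1 to 3 (log2 fold change 0.36 ± 0.051, edgeR adjusted p = 1.2e-04). Dedd2, a death effector domain gene, had 20.7, 19.8 and 19.3 CPM in RBPMS 1 to 3, against 15.5, 16.2 and 16.0 CPM in Control 1 to 3 (0.33 ± 0.094, adjusted p = 0.034). In both genes the RBPMS libraries lay above all controls, while groups did not overlap for 24.7% of all genes over 6 libraries. The inducible Hsp70 genes overlapped over 6 libraries, but Hspa1a was separated without Control 3, as were 37.4% of all genes. Hspe1, the mitochondrial chaperonin cofactor, fell: it had 64.8, 66.1 and 63.3 CPM in RBPMS 1 to 3, against 77.1, 72.4 and 152 CPM in Control 1 to 3 (-0.21 ± 0.058, adjusted p = 0.033). Its partner gene Hspd1, whose locus overlaps Hspe1, had -0.034 ± 0.055. Of 18 immediate early genes, which respond to handling among other stimuli, 1 rose: Nr4a1 had 48.5, 54.6 and 50.3 CPM in RBPMS 1 to 3, against 44.1, 42.6 and 45.3 CPM in Control 1 to 3 (0.24 ± 0.072, adjusted p = 0.046). Unc45a and Zfand2a kept their calls when any 1 further library was left out. The other 8 each lost theirs without at least 1 further library, by the edgeR test.

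**Figure D5:**
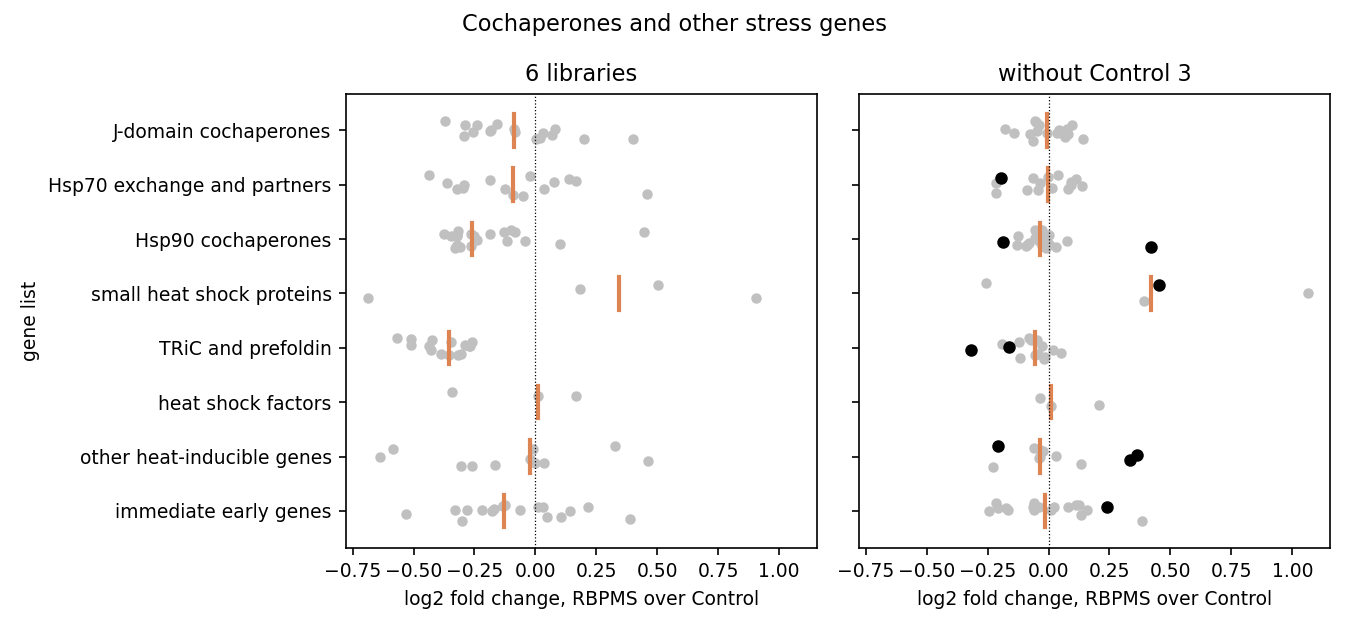
log2 fold change of RBPMS over Control for 103 tested genes in 8 lists, with 6 libraries (left) and without Control 3 (right). Grey points did not pass and black points passed an adjusted p of 0.05 in edgeR, orange bars are list medians, and the TRiC and prefoldin list lies at a median of -0.35 with 6 libraries and -0.056 without Control 3.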

How the data were processed

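RNA of 6 libraries, 3 RBPMS and 3 control, was sequenced after ribosomal RNA removal, per the labels' protocols. The authors deposited whole-number counts per gene, with gene lengths in the same table. FastQC, Salmon and the mm10 build are named in the submitters' processing notes. The sources used here give no versions, no step to whole gene counts and no strand setting. For all 10 members the table's coordinates and length equal those of GENCODE M21 (GRCm38), the length being merged exons.

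The members and lists were chosen with earlier results of these data known. Groups came from sample titles. Counts as deposited were fitted over the whole table in edgeR 4.0.16 (R 4.3.3; quasi-likelihood, filterByExpr, TMM, no term but group, Benjamini-Hochberg adjusted p under 0.05), with all 6 libraries and without Control 3. DESeq2 1.42.0 and limma 3.58.1 (voom) were alternatives. Intervals are 95%, from the standard error and the fit's degrees of freedom. Library ratios used exact two-sided permutation tests. The test was tried on simulated counts. All members were named; of each list, the called genes with the smallest p (up to 4 a direction), or else the 2 most abundant; Hspd1 was named beside Hspe1 after its values were seen. No batch is given in labels or headers. Pairs of one group gave a chi-square per degree of freedom of at least 3.19, so no library was a copy.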

Additional observations from a re-analysis of the deposited data

How the results depend on the processing

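With 6 libraries and without Control 3, 0 members were called by edgeR or under any alternative run: the replicate block, scaling by DESeq2 size factors or by library totals alone, a filter left out or set to 1 CPM in 3 libraries, DESeq2, limma-voom, Hspa1a and Hspa1b summed, a gene length trend as offset (loess span 0.3), and each library left out in turn. With the length trend removed over 6 libraries Hsf1 had a log2 fold change of -0.035 and Hsf2 -0.20, with the sign turned in both. The other members with a negative value had -0.22 (Hsph1), -0.17 (Hspa4), -0.14 (Hspa8 and Hsp90ab1), -0.11 (Dnajb1) and -0.079 (Hsp90aa1). Hspa1a and Hspa1b had 0.12 each. Hsf2 without Control 3 was -0.0057 with the length trend removed and -0.029 with the replicate block. With 1 library left out of 6 the log2 fold change ran from -0.063 to 0.35 for Hspa1a, -0.20 to 0.060 for Hspa8, -0.14 to 0.029 for Hsp90aa1 and -0.049 to 0.068 for Hsf2. With 1 more left out of the 5 it ran from -0.078 to 0.034 for Hspa4, -0.017 to 0.074 for Hsp90aa1 and -0.10 to 0.13 for Hsf2. The sign turned without RBPMS 2, Control 1 or Control 2 for Hspa1a and without Control 3 for Hspa8 and Hsp90aa1, and among the 5 without RBPMS 1 or Control 1 for Hspa4, without Control 2 for Hsp90aa1, and, in both sets, without RBPMS 3 or Control 2 for Hsf2. Both within-library ratios kept their sign. Calls among partner genes ran from 0 to 10 with 1 library left out of 6, the 10 without Control 3, and from 2 to 9 with 1 more left out of the 5, where a lone control is assumed to vary like the other libraries. Without Control 3 DESeq2 called 5 of them, and 6 were called without RBPMS 1, 2 without RBPMS 2, 3 without Control 1 and 3 without Control 2; the cause was not tested. With the replicate block 8 of the 103 partner genes were called without Control 3, among them 5 of the 10 named calls (Unc45a, Zfand2a, Cryab, Fkbp5 and Cct6a), while Bag1, Pfdn2, Hspe1, Dedd2 and Nr4a1 did not pass. Same-numbered libraries did not deviate together from their group means (r of -0.025 to 0.051 over 13898 genes). Control 3 stood apart and so weighs on the deviations of all controls. This check therefore cannot decide whether the numbers pair the libraries. Depth limits Hspb1 and, at 37 to 81 counts, Hspa1a.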
